A study of Mus musculus with 10 samples.

Results

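The genes described here encode the signalling machinery and the transcription factors of the T cell lineage, read in B cell progenitors of mice with a knockout of Mta2 and of controls. They are Cd4, Cd5, Cd247, Lck, Zap70, Lat, Themis, Tcf7, Gata3 and Bcl11b, listed by name as T cell genes that lie outside the Cd3 gene cluster. The list was made with earlier results of these data known. These 10 genes are 10 of the 23420 genes counted. RNA was sequenced from cells sorted from the bone marrow of C57BL/6 mice. Small pre-B cells were gated as B220+ IgM- CD43- and small by scatter, and pro-B cells, the earlier stage, as B220+ IgM- CD43+. The groups were small pre-B cells with Mta2 knocked out under Vav (labelled Mta2_VavKO, here Mta2 KO, 3 libraries), small pre-B cells of controls (3), pro-B cells with the same knockout (2) and pro-B cells of controls (2). The labels call the controls only "Control", so whether they carried a floxed allele or the Vav-driven recombinase is not known here. The Vav promoter is active throughout blood formation, so the knockout is not limited to B cells. Mta2 is a subunit of NuRD, a complex that moves nucleosomes and removes acetyl groups from histones.

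In a T cell, the receptor has no enzyme of its own. The kinase Lck, held by the co-receptor CD4, phosphorylates the Cd247 chain (CD3 zeta), which then binds the kinase Zap70, and Zap70 phosphorylates the membrane scaffold Lat. CD5 restrains the signal, and Themis sets its strength in thymocytes. Tcf7 (TCF-1) and Gata3 are switched on early, and Bcl11b later, as progenitors commit to the T lineage in the thymus. Several of these genes are shared with other cells: natural killer cells use Cd247, Lck, Zap70 and Lat, and mouse plasmacytoid dendritic cells carry B220 and can carry CD4.

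The promoters of Cd247, Lat and Bcl11b are shown because these were the members that passed the test in small pre-B cells. RefSeq promoter windows on GRCm38.p6 (the mm10 assembly) run from 250 bases before to 50 after each annotated start, 5′ to 3′ on the strand of the gene, and capitals mark the motif matches. The Cd247 window lies at chr1:165788431-165788730 on the + strand, that of Lat at chr7:126369519-126369818 on the - strand, and that of Bcl11b at chr12:108003365-108003664 on the - strand.
Cd247: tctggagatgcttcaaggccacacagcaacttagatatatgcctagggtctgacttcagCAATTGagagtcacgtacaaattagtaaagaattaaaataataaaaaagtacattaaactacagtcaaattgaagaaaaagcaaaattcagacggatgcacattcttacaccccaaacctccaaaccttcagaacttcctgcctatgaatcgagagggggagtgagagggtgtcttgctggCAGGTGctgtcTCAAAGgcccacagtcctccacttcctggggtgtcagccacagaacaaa
Lat: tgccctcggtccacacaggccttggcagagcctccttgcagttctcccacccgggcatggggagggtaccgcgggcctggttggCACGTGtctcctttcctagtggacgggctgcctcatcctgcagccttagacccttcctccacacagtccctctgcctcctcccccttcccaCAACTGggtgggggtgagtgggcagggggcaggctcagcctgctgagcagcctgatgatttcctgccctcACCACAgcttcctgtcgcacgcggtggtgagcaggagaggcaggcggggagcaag
Bcl11b: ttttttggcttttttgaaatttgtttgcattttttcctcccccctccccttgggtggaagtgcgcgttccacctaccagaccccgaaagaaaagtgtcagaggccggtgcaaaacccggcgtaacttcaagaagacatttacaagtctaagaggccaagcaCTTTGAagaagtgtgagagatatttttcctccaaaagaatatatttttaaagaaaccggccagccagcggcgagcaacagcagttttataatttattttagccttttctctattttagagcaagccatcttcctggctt

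Motifs were searched on both strands. The E-box of basic helix-loop-helix proteins was searched as CANNTG, the site of RUNX factors as TGTGGT and that of TCF factors such as Tcf7 itself as CTTTGA. Factors of the GATA family were represented by the letters AGATAA and ETS factors by the letters CGGAAG. The octamer, which Oct proteins bind together with OCA-B, was searched as ATGCAAAT. The Cd247 window held E-boxes at -191 and -10 and the TCF letters, read on the other strand, at 2, counted from the start. The Lat window held E-boxes at -166 and -75 and the RUNX letters, read on the other strand, at -5. The Bcl11b window held the TCF letters at -89 and no E-box. Of 32851 promoter windows in the same table, 72.3% held an E-box, 16.8% the RUNX letters, 16% the TCF letters, 11.2% the GATA letters, 16.9% the ETS letters and 1.74% the octamer. The 3 windows shared no motif other than the E-box (Cd247 and Lat) and the TCF letters (Cd247 and Bcl11b), both of which are matches of letters and not measured binding. Their base composition also differed, with 65.7% G and C in Lat against 43.7% in Cd247 and 43% in Bcl11b, and a median of 52.7% over all windows. No octamer was found in the 14 windows matched to 9 of the members (all but Cd4).

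Libraries held 17805507 to 52127004 counts, and 3 counts corresponded to 0.054 to 0.173 CPM (counts relative to the library total, after scaling between libraries by the trimmed mean of M values, TMM). Of all genes, 14161 had enough counts to test, and all 10 members were among them. Mta2 RNA was 163 and 166 CPM in pro-B KO libraries 1 and 2, against 436 and 375 CPM in the controls, and in small pre-B cells 199, 179 and 198 CPM in KO libraries 1 to 3, against 438, 246 and 412 CPM in the controls. Mta2 was thus lower in every KO library, by 0.93 on the log2 scale in small pre-B cells (SE 0.19, adjusted p = 0.042, edgeR quasi-likelihood test with Benjamini-Hochberg adjustment), and the same test did not pass in pro-B cells (log2 fold change -1.31, SE 0.24, adjusted p = 0.212). In the header of its file, small pre-B control 3 carried the number of control 2, and its title carried another. Xist RNA exceeded Y-linked RNA in small pre-B KO 1 and 2 and in no other library. All p-values measure the spread between libraries, since the labels do not say whether they came from separate animals.

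**Figure D1:**
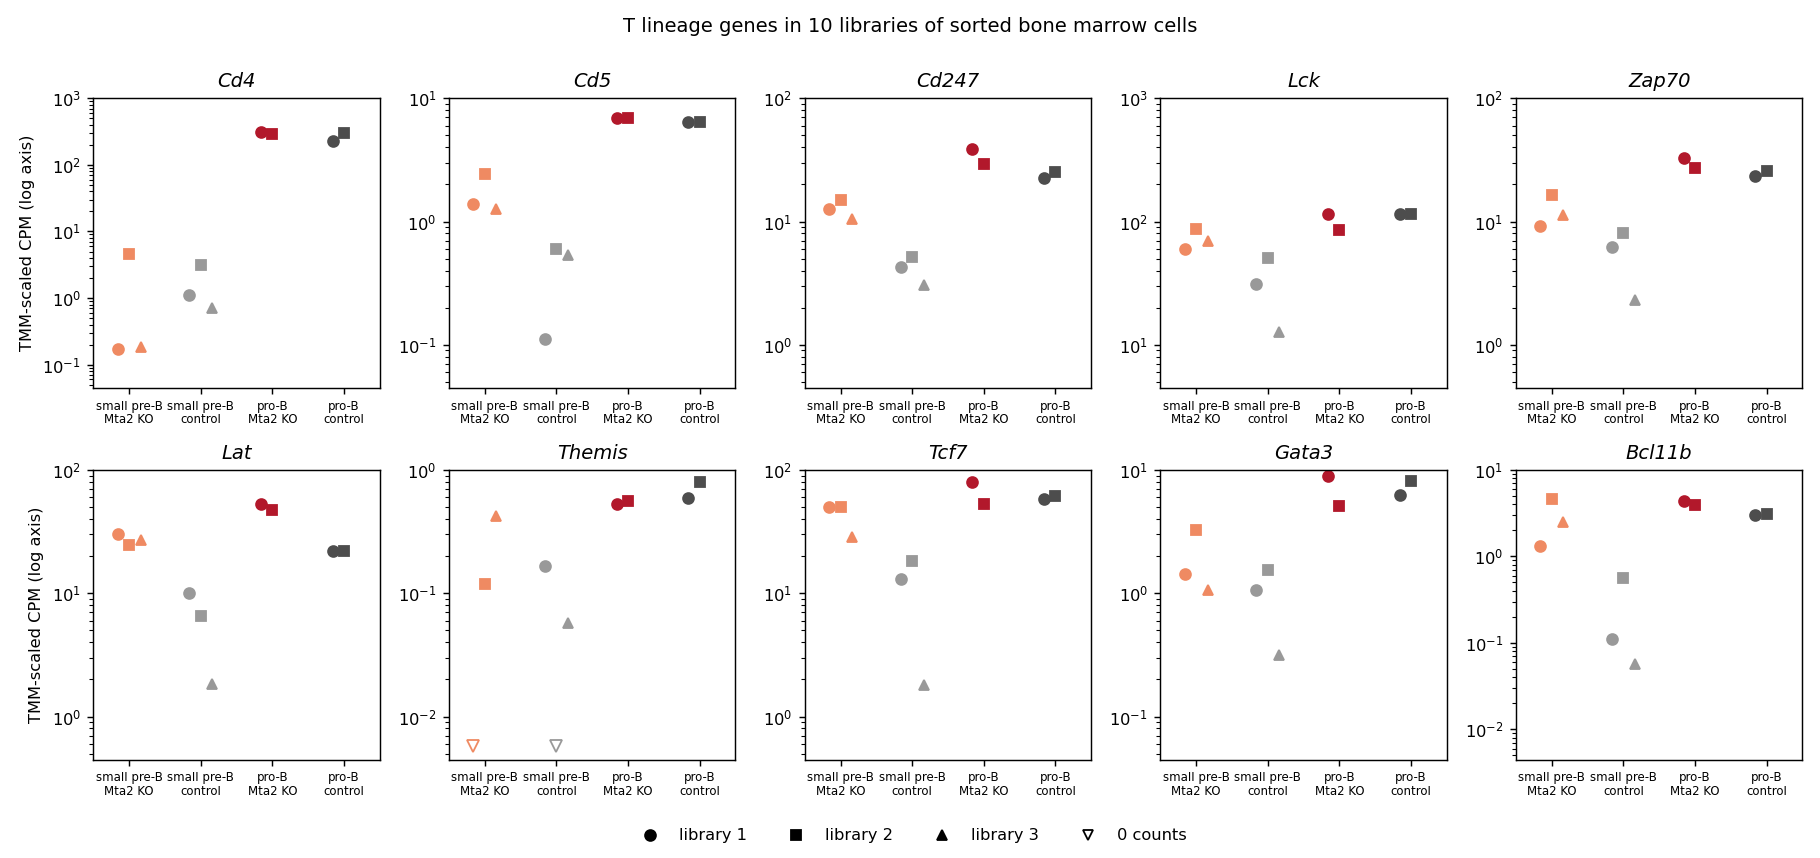
TMM-scaled CPM of each gene on a log axis (each panel has its own range) in the 10 libraries, by cell type and genotype, with one symbol per library number. Downward triangles at the base mark libraries with 0 counts. All 10 genes were lower in the small pre-B controls than in the pro-B controls, and Cd4 was the gene with the widest gap.

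Per kilobase of exon, Cd4 was among the scarcer of the 10 genes in the small pre-B gate and the most abundant in the pro-B gate. In small pre-B KO cells the order was led by Lck at 31.4 CPM per kilobase, Lat at 22.2 and Tcf7 at 19.2, followed by Zap70 at 5.63 and Cd247 at 2.74. Cd5 (0.821), Gata3 (0.601), Cd4 (0.537) and Bcl11b (0.355) each overlapped their neighbour in level, as did Lat and Tcf7, and Themis came last at 0.0451. In small pre-B controls Lck led at 13.8, with Lat at 4.99, Tcf7 at 4.91, Zap70 at 2.56 and Cd247 at 0.897 CPM per kilobase, and no neighbours in the order were separate beyond the spread of the 3 libraries. Levels of Cd247 are understated on this scale, because 2918 of its 4604 exon bases (63.4%) are shared with Pou2f1 on the opposite strand and the counting, per the file headers, used no strand option and no option to assign a read to more than 1 gene. Over its 1686 unshared bases Cd247 would stand at 7.48 CPM per kilobase in small pre-B KO cells and 2.45 in small pre-B controls, above Zap70 in KO cells. No other member shares exon bases with a listed gene.

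In the pro-B gate, Cd4 led the same order. In pro-B KO cells the mean level was 97.2 CPM per kilobase of exon for Cd4, 43.8 for Lck, 40.8 for Lat, 29.7 for Tcf7, 13.8 for Zap70, 7.38 for Cd247, 3.34 for Cd5, 2.19 for Gata3, 0.527 for Bcl11b and 0.136 for Themis. Lck and Lat overlapped between libraries, and the other neighbours in this order did not. Pro-B controls kept nearly the same order, with 85.5 CPM per kilobase for Cd4, 50.4 for Lck, 26.6 for Tcf7 and 17.8 for Lat at the top and 0.174 for Themis at the bottom, and no neighbours overlapped. Lat stood above Tcf7 in pro-B KO cells and below it in pro-B controls. The place of Cd247 below Zap70 rests on the full exon length, which understates Cd247 here too. Over its unshared bases Cd247 would stand at 20.2 CPM per kilobase in pro-B KO cells and 14.2 in pro-B controls. Both are above the Zap70 means of 13.8 and 11.3.

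The stage comparison asked how the T lineage genes differed between the small pre-B and the pro-B gate in controls. All 10 fell, and in all 10 every small pre-B control was below every pro-B control, against 38.9% of all genes tested. Over all genes tested, 29.4% were called lower and 55.4% were called in either direction, so a lower call was common between these gates. The members' median log2 fold change was -2.73, beside -0.02 over all genes. Every library of a gate differs from the other gate's in cell type and possibly in handling, and these cannot be told apart. In bulk RNA, fewer cells of a type and less RNA per cell cannot be told apart either.

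Cd4 (chr6:124864693-124888209, - strand, mm10), the co-receptor of helper T cells, showed the widest gap. It had 1.11, 3.18 and 0.71 CPM in small pre-B controls, against 231 and 299 CPM in pro-B controls, a log2 fold change of -7.32 (SE 1.04, adjusted p = 0.00045, edgeR quasi-likelihood test). The gene with the profile most like that of Cd4 over the 10 libraries was Siglech, a surface receptor of plasmacytoid dendritic cells, with a root-mean-square difference of 0.43 on the centred log2 CPM scale among 11202 candidate genes. Siglech had 4.63, 13.7 and 3.47 CPM in small pre-B controls, against 1571 and 1672 CPM in pro-B controls, and 10 plasmacytoid dendritic cell markers, which include Tcf4, Spib and Irf8 that B cells also use, together had 2789 to 3414 CPM, against 6985 to 7534 CPM. The part of such cells in the Cd4 level was not tested. Markers of other cell types fell with the members. All 9 T cell markers fell (1.53 to 4.79 CPM summed in small pre-B controls, against 114 to 126 CPM in pro-B controls), as did all 13 natural killer and innate lymphoid markers (15.8 to 197 CPM, against 825 to 955 CPM) and all 11 myeloid markers (120 to 347 CPM, against 9455 to 9508 CPM). Their part in the members' fall was not tested.

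The surface receptors and signalling genes followed with smaller gaps. Cd5 (chr19:10718143-10738974, - strand) had 0.111, 0.604 and 0.54 CPM in small pre-B controls, against 6.46 and 6.39 CPM in pro-B controls (log2 fold change -3.86, SE 0.49, adjusted p = 0.00021, edgeR). Cd247 fell by 2.54 on the log2 scale, Zap70 by 2.15, Lck by 1.87 and Lat by 1.86, with adjusted p between 4.47e-05 and 0.0109 (edgeR). Among the transcription factors, Bcl11b fell by 3.64, Gata3 by 2.92 and Tcf7 by 2.45. Themis fell by 3.31 on 5 counts in all small pre-B controls, against 75 in the pro-B controls. Its call (adjusted p = 0.0229) was lost when any of pro-B control 1 (0.0714), pro-B control 2 (0.108) and small pre-B control 2 (0.0510) was left out, and that of Tcf7 (0.013) without pro-B control 2 (0.0531). In a fit of the compared groups alone, Tcf7 (0.0559) and Lat (0.0598) were not called.

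The pro-B comparison asked what loss of Mta2 did to these genes in the pro-B gate. None of the 10 passed the edgeR test at an adjusted p below 0.05, 0 had an unadjusted p below 0.05, and limma-voom and DESeq2 also called 0, although DESeq2 gave no adjusted p for Cd4 in any comparison. Among all genes tested, 0.0353% (5) were called and 6.45% had an unadjusted p below 0.05. Both KO libraries were above both controls for 5 members, Cd5, Cd247, Zap70, Lat and Bcl11b, and below them for Themis, where 27.4% of all genes were wholly above and 28.1% wholly below. The members' median log2 fold change was 0.17, beside -0.01 over all genes.

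Lat, the scaffold that Zap70 phosphorylates, was the member with the widest gap. Lat (chr7:126363828-126369534, - strand) had 53.0 and 47.6 CPM in pro-B KO libraries, against 21.9 and 21.9 CPM in pro-B controls, with a log2 fold change of 1.20 (SE 0.54, adjusted p = 0.779, edgeR). A fit of the pro-B libraries alone called it (adjusted p = 0.00145), in a table where that fit called 856 genes. The next widest was Cd247, with 38.6 and 29.4 CPM in pro-B KO libraries, against 22.5 and 25.3 CPM in pro-B controls (log2 fold change 0.51, SE 0.26, adjusted p = 0.898, edgeR).

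The other members had smaller fitted changes in the pro-B gate. Cd4 had 313 and 289 CPM in KO libraries, against 231 and 299 CPM in controls, and Cd5 had 6.95 and 6.88 CPM, against 6.46 and 6.39 CPM. Lck had 116 and 85.3 CPM in KO libraries, against 116 and 115 CPM in controls, and Tcf7 had 80.1 and 53.0 CPM, against 57.6 and 61.5 CPM. The log2 fold changes of the 8 members other than Lat and Cd247 lay between -0.35 (Themis, SE 0.90) and 0.46 (Bcl11b, SE 0.70). KO library 1 held the highest level of 8 members in this gate. With 2 libraries a group, standard errors of 0.46 to 0.90 for these 8 leave changes of these sizes not detectable.

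Summed marker genes of some other cell types were apart between genotypes in the pro-B gate. The summed level of 11 myeloid and granulocyte markers was 14549 to 21433 CPM in KO libraries, against 9455 to 9508 CPM in controls, and that of 8 stem and progenitor markers was 712 to 807 CPM, against 347 to 444 CPM. The 9 T cell markers that the files list summed to 169 to 189 CPM in KO libraries, against 114 to 126 CPM in controls. These markers were mixed, with 6 wholly above the controls and 2 (Cd28 and Icos) wholly below. Cd8a and Cd8b1 carried most of the rise, at means of 61.8 and 47.8 CPM in KO libraries, against 31.5 and 25.5 CPM in controls. Cd28 had a mean of 21 CPM in KO libraries, against 31.1 CPM in controls. Natural killer and innate lymphoid markers overlapped, with 641 to 1009 CPM in KO libraries, against 825 to 955 CPM in controls, and so did plasmacytoid dendritic cell markers, with 7275 to 7974 CPM, against 6985 to 7534 CPM. That list was split, with 6 of its 10 genes positive. Both KO libraries were above both controls for 3 (Siglech, Ccr9 and Irf8) and below them for 4 (Klk1, Cd209a, Cd209d and Spib). The widest gaps were in genes that were lower. Klk1 had 7.97 and 6.05 CPM in KO libraries, against 101 and 70.0 CPM in controls, Cd209a had 25.9 and 25.1 CPM, against 94.8 and 83.9 CPM, and Cd209d had 5.49 and 4.62 CPM, against 51.7 and 56.0 CPM. B cell markers summed to 2139 to 2517 CPM in KO libraries, against 2537 to 2771 CPM in controls. No gene of these lists passed the test, and the part of these cells in the members' levels was not tested.

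**Figure D2:**
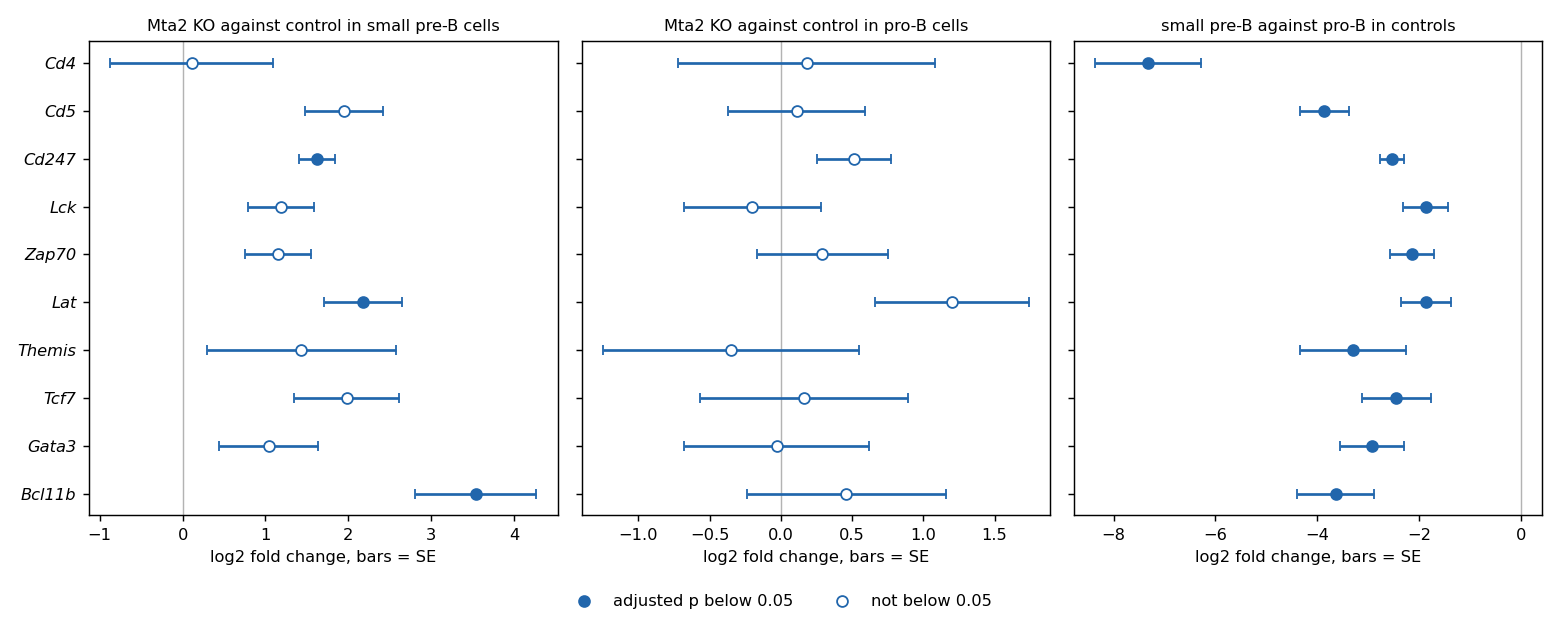
Fitted log2 fold change of each gene with its SE (edgeR, all 10 libraries in 1 model) for the knockout in small pre-B cells (left) and in pro-B cells (middle), and for small pre-B against pro-B controls (right), each panel with its own axis. Filled points have an adjusted p below 0.05. Cd247, Lat and Bcl11b are filled on the left, none is filled in the middle, and all 10 are filled on the right.

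The small pre-B comparison asked the same of Mta2 loss at the later stage, and its controls also served the stage comparison. Cd247, Lat and Bcl11b rose, with log2 fold changes of 1.62, 2.18 and 3.54, and the other 7 members did not pass the test. Among all genes tested, 1.89% were called higher and 3.02% in either direction. An unadjusted p below 0.05 was found for 7 of the members and for 24.7% of all genes. All 10 fitted log2 fold changes were above 0, beside 50.6% of all genes, with a median of 1.52, beside 0.01 over all genes. For 7 members, Cd5, Cd247, Lck, Zap70, Lat, Tcf7 and Bcl11b, every KO library was above every control, against 13.3% of all genes, while Cd4, Themis and Gata3 overlapped. Because the members were chosen with earlier results of these data known, these contrasts with all genes describe the set and are no independent test. The 10 members together summed to 166, 208 and 153 CPM in KO libraries, against 67.5, 94.7 and 23.4 CPM in controls.

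Which members were called depended on the libraries in the fit. Leaving out any of pro-B KO 1 or 2, pro-B control 1 or 2, small pre-B KO 1 or 2 or small pre-B control 1 left 0 of the 10 called, with adjusted p of 0.0582 to 0.0825 for Cd247, 0.0697 to 0.132 for Lat and 0.0842 to 0.104 for Bcl11b (edgeR). Without small pre-B KO 3 only Cd247 was called, without control 3 Cd247, Lat and Tcf7 were, and without control 2 6 were, namely Cd5, Cd247, Lck, Zap70, Lat and Bcl11b. The number of genes called over the whole table also changed widely with the library left out, as given at the end. The header number as a block left 0 called, with an adjusted p of 0.143 for Cd247, and so did a fit of the compared groups alone (0.129, edgeR). A term for sex-linked RNA marked only small pre-B KO 1 and 2. In that fit the small pre-B effect rested on KO 3 alone, because sex-linked RNA and genotype are partly confounded here. The cause of the lost calls was not tested. With 1 library left out the log2 fold change stayed between 1.42 and 1.80 for Cd247, 1.72 and 2.73 for Lat, and 2.96 and 5.14 for Bcl11b. Control 3 had the lowest level of 7 members in this gate, and KO 2 the highest level of 7.

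**Figure D3:**
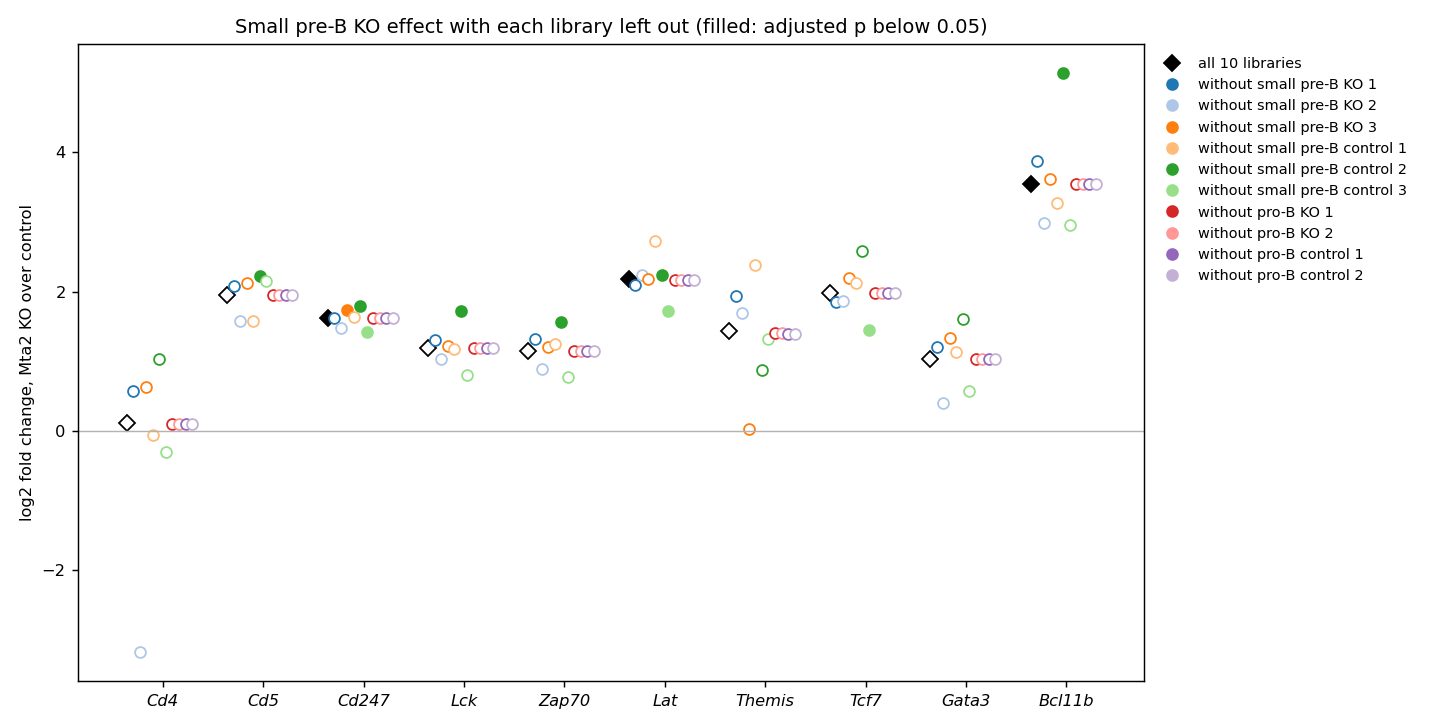
Fitted log2 fold change of each gene in small pre-B cells, Mta2 KO over control, from all 10 libraries (diamond) and with each library left out in turn (circles), filled where the adjusted p was below 0.05. Cd4 ran from -3.17 to 1.03, whereas Cd247 stayed within 1.42 to 1.80.

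Among the surface receptors, Cd247 (chr1:165788681-165871153, + strand), the zeta chain that carries most of the phosphorylation sites of the T cell receptor complex, separated the genotypes most evenly. It had 12.6, 14.9 and 10.4 CPM in KO libraries, against 4.24, 5.12 and 3.04 CPM in controls, or 12.6 ± 2.23 and 4.13 ± 1.04 CPM (SD, n = 3 each). The lowest KO library was above the highest control by more than the range of the controls, and the fitted change was 1.62 (SE 0.22, adjusted p = 0.0254, edgeR). Pou2f1, the gene on its opposite strand, had 164, 194 and 126 CPM in KO libraries, against 144, 197 and 260 CPM in controls, so its level did not separate the genotypes.

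Cd5, a receptor that damps antigen receptor signals in T cells and in some B cells, was low in both genotypes. It had 1.38, 2.45 and 1.26 CPM in KO libraries, against 0.111, 0.604 and 0.54 CPM in controls, on 113 and 36 counts in all. The groups did not overlap, and the fitted change of 1.95 (SE 0.47) missed the threshold at an adjusted p of 0.0577 (edgeR).

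Cd4 showed the least difference. It had 0.173, 4.62 and 0.186 CPM in KO libraries (3, 117 and 4 counts), against 1.11, 3.18 and 0.71 CPM in controls (20, 79 and 25 counts). KO 2 was the highest of the 6 libraries while KO 1 and KO 3 were the lowest, so the groups overlapped completely. The fitted change was 0.11 (SE 0.98, adjusted p = 0.959, edgeR), and without KO 2 it turned to -3.17. Siglech was likewise low in KO 1 and KO 3, with 0.865, 10.9 and 0.839 CPM in KO libraries, against 4.63, 13.7 and 3.47 CPM in controls, and was highest in control 2.

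The kinases Lck (chr4:129548344-129573641, - strand) and Zap70 (chr1:36761861-36782816, + strand) act in sequence at the receptor. Lck had 59.4, 87.3 and 69.5 CPM in KO libraries, against 31.3, 51.0 and 12.7 CPM in controls, with a fitted change of 1.19 (SE 0.40, adjusted p = 0.12, edgeR). Zap70 had 9.17, 16.4 and 11.3 CPM in KO libraries, against 6.24, 8.14 and 2.33 CPM in controls, with a fitted change of 1.15 (SE 0.40, adjusted p = 0.123, edgeR). In both genes all KO libraries were above all controls, but KO 1 exceeded control 2 only narrowly. The pair tracked each other closely over all 10 libraries, and Zap70 was the member nearest to Lck in profile (root-mean-square difference 0.33 on the log2 scale).

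Lat varied little between KO libraries and more between controls. It had 30.1, 24.8 and 27.2 CPM in KO libraries, against 10.1, 6.53 and 1.82 CPM in controls, or 27.4 ± 2.65 and 6.16 ± 4.18 CPM (SD, n = 3 each). The fitted change was 2.18 (SE 0.47, adjusted p = 0.0458, edgeR), close to the threshold. The call was lost with no filter on low counts (adjusted p = 0.0618).

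Themis (chr10:28668395-28882749, + strand), which tunes receptor signals during T cell selection, was at the limit of detection. It had 0, 3 and 9 counts in KO libraries, against 3, 0 and 2 counts in controls. Pooled, the KO over control ratio was 2.92 with a 95% exact counting interval of 0.957 to 10.6, so a difference was not detectable at this depth.

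The transcription factors differed in how far they moved. Bcl11b (chr12:107910403-108003414, - strand), which T cell progenitors need to commit to their lineage, had the largest fold change of the 10 genes at one of the lowest levels. It had 1.33, 4.58 and 2.52 CPM in KO libraries (23, 116 and 54 counts), against 0.111, 0.564 and 0.0568 CPM in controls (2, 14 and 2 counts). Every KO library was above every control, and 193 pooled counts against 18 gave a ratio of 13 (95% exact counting interval 8.04 to 22.5). The fitted change was 3.54 (SE 0.73, adjusted p = 0.0414, edgeR), at the 99.2 percentile of all genes tested. The mean of 2.81 CPM in small pre-B KO cells compares with 4.17 CPM in pro-B KO cells and 3.04 CPM in pro-B controls.

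Tcf7 (chr11:52252604-52282571, - strand), which acts early in thymocytes, had 50.3, 49.7 and 28.7 CPM in KO libraries, against 13.0, 18.1 and 1.79 CPM in controls. The groups did not overlap, but control 3 lay far below the other controls, and the fitted change of 1.98 (SE 0.63) did not pass (adjusted p = 0.107, edgeR). Gata3 (chr2:9857078-9878600, - strand), which is required at several steps of T cell and innate lymphoid development, had 1.44, 3.28 and 1.07 CPM in KO libraries, against 1.06, 1.53 and 0.313 CPM in controls. Its groups overlapped, with a fitted change of 1.04 (SE 0.60, adjusted p = 0.306, edgeR).

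**Figure D4:**
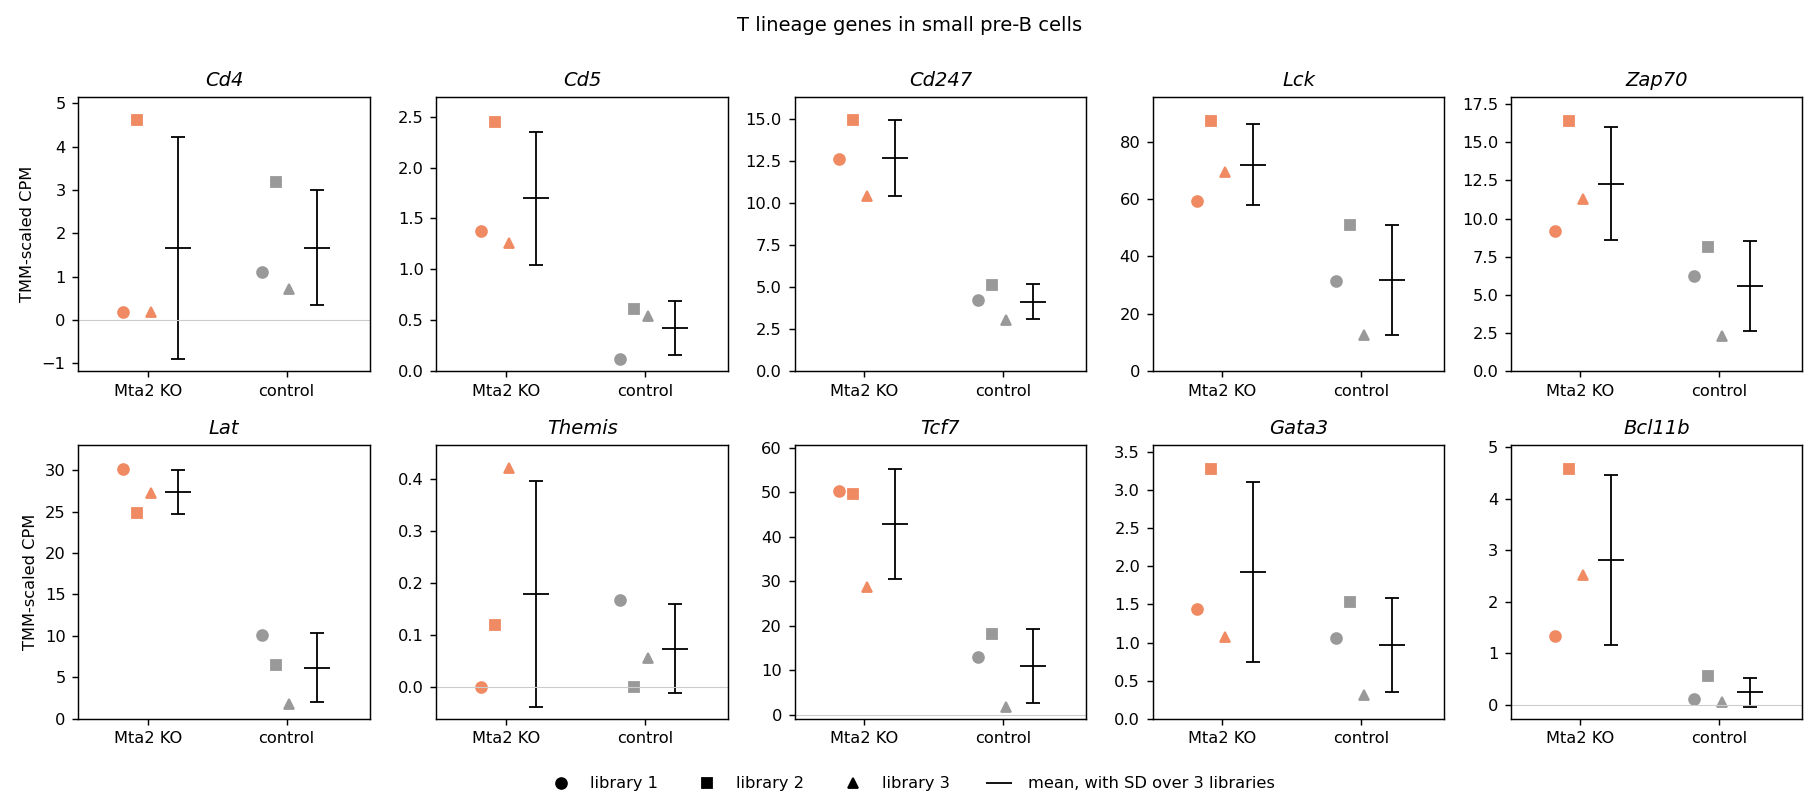
TMM-scaled CPM of each gene in the small pre-B libraries on linear axes, Mta2 KO on the left and control on the right, with one symbol per library number. Horizontal lines and bars give the mean and SD over 3 libraries. Lat and Cd247 separated by more than the spread of either genotype, whereas Cd4, Themis and Gata3 overlapped.

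In the small pre-B gate, the summed T cell markers and stem and progenitor markers were apart between genotypes. The natural killer, plasmacytoid dendritic and myeloid sums overlapped. Of 9 T cell markers in the files, 8 had a positive fold change and 3 rose, with summed levels of 18.7 to 50.9 CPM in KO libraries, against 1.53 to 4.79 CPM in controls. Beside this and the lists below, 50.6% of all genes were positive, 1.89% were called higher and 3.02% in either direction. The 3 markers that rose were Cd3e, Cd3d and Cd3g, neighbours in the Cd3 gene cluster and subunits of the receptor complex. Cd3e had 8.13, 16.6 and 5.41 CPM in KO libraries, against 0.446, 0.282 and 0.0284 CPM in controls (adjusted p = 0.0207, edgeR). Cd8a, a co-receptor of cytotoxic T cells, had 0.635, 5.33 and 1.17 CPM in KO libraries, against 0.78, 0.282 and 0.114 CPM in controls. Its groups overlapped, as did those of Cd8b1, Icos and Ctla4. At 0 were Ctla4 in KO 3 and in control 2, Trat1 in controls 1 and 3, and Cd8b1 in control 1. The T cell receptor constant genes Trac, Trbc1 and Trbc2 were on the list but are not among the genes counted, so they could not be analysed.

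The 13 natural killer and innate lymphoid markers summed to 155 to 345 CPM in KO libraries, against 15.8 to 197 CPM in controls, where control 3 held the 15.8 CPM, and 12 of them were positive with 0 called. Of these, Rora was at 0 in KO 3 and Gzmb in control 3. Summed plasmacytoid dendritic cell markers overlapped, at 2949 to 3760 CPM in KO libraries, against 2789 to 3414 CPM in controls. Most of this sum was Spib, Tcf4 and Irf8, which B cells also use. Their means were 2635, 403 and 248 CPM in KO libraries, against 2577, 299 and 237 CPM in controls. The sum therefore cannot show whether plasmacytoid dendritic cells differed between genotypes. Klk1, Cd209a and Cd209d were at 0 in KO 1 and KO 3, and Klk1 also in control 1. Of the 10 markers, 5 were positive and 1 (Cd209a) fell. The 11 myeloid markers summed to 216 to 449 CPM in KO libraries, against 120 to 347 CPM in controls, and all 11 were positive with 0 called. The 8 stem and progenitor markers summed to 65 to 104 CPM in KO libraries, against 17 to 31.3 CPM in controls, and among them the growth factor receptor gene Kit rose to 81.9, 50.9 and 36.3 CPM in KO libraries, against 14.9, 10.9 and 3.64 CPM in controls (adjusted p = 0.0317, edgeR). Of the 7 that could be tested, 6 were positive and Kit alone was called, whereas Meis1, a transcription factor of stem cells, had 5.65, 4.35 and 7.27 CPM in KO libraries, against 12.7, 7.98 and 11.4 CPM in controls (adjusted p = 0.0705, edgeR).

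Of the B cell stage markers in the small pre-B gate, the pro-B sums were apart between genotypes and the small pre-B sums overlapped. The 7 pro-B markers, which include Kit, summed to 1754 to 2558 CPM in KO libraries, against 1385 to 1736 CPM in controls, 5 were positive and Kit was the 1 called. The 7 small pre-B markers summed to 4983 to 6275 CPM in KO libraries, against 5600 to 9489 CPM in controls. Of them, 3 were positive and 1 was called, as lower. This was Il2ra, the interleukin receptor chain CD25, with 144, 120 and 152 CPM in KO libraries, against 437, 263 and 369 CPM in controls (log2 fold change -1.36, adjusted p = 0.0259, edgeR). B cell markers summed to 6374 to 9109 CPM in KO libraries, against 6598 to 8341 CPM in controls, with 0 called. The part of other cells, or of cells nearer the pro-B stage, in the members' levels was not tested.

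**Figure D5:**
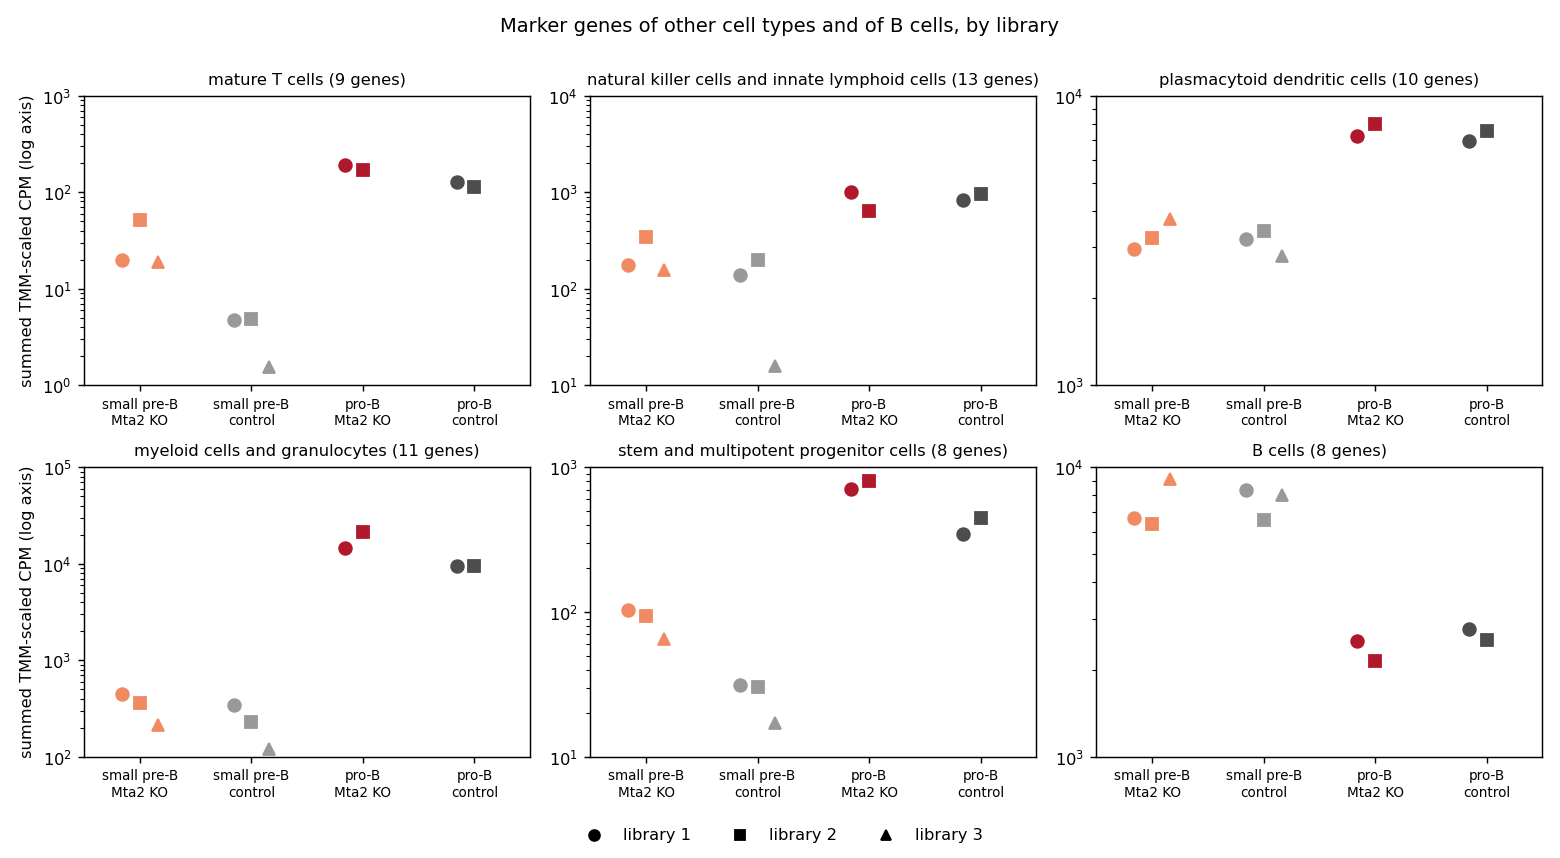
Summed TMM-scaled CPM of fixed marker lists on log axes (each panel has its own range), by cell type and genotype, with one symbol per library number. In small pre-B cells the T cell list was 18.7 to 50.9 CPM in KO libraries, against 1.53 to 4.79 CPM in controls. The B cell and plasmacytoid dendritic cell lists overlapped between genotypes there. Most of the plasmacytoid dendritic cell sum in small pre-B cells was Spib, Tcf4 and Irf8, which B cells also use.

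Whether the knockout effect differed between stages was tested as the small pre-B effect minus the pro-B effect, which uses the same libraries as the comparisons above. None of the 10 members was called, 3 had an unadjusted p below 0.05, and DESeq2 and limma-voom called 0 of the 10. Over all genes tested, 0% were called, and 6.4% had an unadjusted p below 0.05. Those 3 were Bcl11b (difference 3.09, SE 1.01, unadjusted p = 0.0136, adjusted p = 0.689), Cd5 (difference 1.85, unadjusted p = 0.0218) and Cd247 (difference 1.11, unadjusted p = 0.00964, edgeR for all). For 9 members the difference was positive, with a median of 1.25, beside 0.01 over all genes. For Lat the difference was 0.98 (SE 0.70, adjusted p = 0.796, edgeR). Like Cd5, Cd247, Zap70 and Bcl11b, Lat was above the controls in all KO libraries of both gates.

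Ratios between members within a library show whether they moved together. Lat counts per count of Lck were 0.457 and 0.558 in pro-B KO libraries, against 0.189 and 0.19 in pro-B controls, and among small pre-B cells 0.507, 0.284 and 0.391 in KO libraries, against 0.324, 0.128 and 0.143 in small pre-B controls. The pro-B genotypes were apart on this ratio, and the small pre-B genotypes overlapped through control 1. Bcl11b per count of Tcf7 was 0.0264, 0.0922 and 0.0877 in small pre-B KO libraries, against 0.00855, 0.0311 and 0.0317 in small pre-B controls, and 0.055 and 0.0745 in pro-B KO libraries, against 0.0524 and 0.0498 in pro-B controls. Cd4 per count of Lck was 0.00292, 0.0529 and 0.00268 in small pre-B KO libraries, against 0.0357, 0.0625 and 0.0558 in small pre-B controls. Cd4 was also the member farthest in profile from each of the other 9 (root-mean-square differences of 3.02 to 3.80 on the log2 scale).

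Of 30 other genes of T cell receptor signalling, 2 rose and 0 fell in small pre-B KO cells, where 1.89% of all genes were called higher. Of the 30, 22 were positive, where 50.6% of all genes were, and the median log2 fold change was 0.40, beside 0.01 over all genes. In pro-B KO cells 0 were called, where 0.0353% of all genes were, and the median was 0.08, beside -0.01 over all genes. Lcp2 (SLP-76), an adaptor brought to phosphorylated Lat by Grap2 (GADS), had in small pre-B cells 57.4, 57.0 and 39.3 CPM in KO libraries, against 21.5, 19.3 and 9.86 CPM in controls (log2 fold change 1.61, SE 0.27, adjusted p = 0.0254, edgeR). All KO libraries were above all controls, and in pro-B cells Lcp2 had 91.8 and 86.9 CPM in KO libraries, against 67.4 and 75.5 CPM in controls.

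Cd6, a receptor related to Cd5, had in small pre-B cells 0.808, 2.69 and 0.699 CPM in KO libraries, against 0.167, 0.322 and 0.0852 CPM in controls (log2 fold change 2.93, SE 0.64, adjusted p = 0.0475, edgeR). In pro-B cells Cd6 had 18.2 and 19.9 CPM in KO libraries, against 5.23 and 6.10 CPM in controls, and did not pass (adjusted p = 0.516, edgeR). Next in order, and short of the call, were Trat1, an adaptor of the receptor complex with 15, 10 and 3 counts in KO libraries, against 0, 1 and 0 counts in controls (adjusted p = 0.0529), and Ubash3a, a negative regulator of the receptor with 58.8, 36.7 and 34.4 CPM, against 18.7, 25.4 and 12.9 CPM (adjusted p = 0.0532, edgeR). After them by p came Cd2 and Sla, which went the other way, with every KO library below every control. Their log2 fold changes were -1.45 and -0.87 (adjusted p = 0.058 and 0.0683, edgeR). Between stages in controls, 6 of the 30 rose and 16 fell, where 29.4% of all genes fell and 55.4% were called, with a median of -1.04, beside -0.02 over all genes.

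Of 20 other transcription factors of the T and innate lymphoid lineages, 1 rose and 0 fell in small pre-B KO cells, where 1.89% of all genes were called higher. Of the 20, 14 were positive, where 50.6% of all genes were, and the median log2 fold change was 0.29, beside 0.01 over all genes. Ikzf2 (Helios), an Ikaros family factor of T cells, had 14.2, 27.1 and 8.25 CPM in KO libraries, against 2.90, 2.42 and 1.62 CPM in controls (log2 fold change 2.86, SE 0.42, adjusted p = 0.0254, edgeR), and in pro-B cells 21.9 and 25.0 CPM in KO libraries, against 17.5 and 22.8 CPM in controls. Its level in small pre-B KO 2 thus reached that of the pro-B libraries. Tox, needed for CD4 T cell development, had 3.06, 5.41 and 2.10 CPM in KO libraries, against 1.06, 1.29 and 0.199 CPM in controls, and did not pass (adjusted p = 0.0789, edgeR). Id3, an inhibitor of E proteins, and Satb1, a chromatin organiser of thymocytes, had log2 fold changes of 0.85 and 0.56 (adjusted p = 0.0843 and 0.0928, edgeR). In pro-B KO cells 0 of the 20 were called, and between stages in controls 5 rose and 9 fell, where 29.4% of all genes fell and 55.4% were called.

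The genes most like each member over the 10 libraries came from many families. By root-mean-square difference of centred log2 CPM, the nearest was Dll4, a Notch ligand, for Cd5 (0.46), Ccdc120 for Cd247 (0.20), Car12, a carbonic anhydrase, for Lck (0.24), Hopx for Zap70 (0.20) and Layn for Lat (0.18). It was Gimap4, a GTPase of lymphocytes, for Tcf7 (0.37), Ctsw, a cathepsin of cytotoxic lymphocytes, for Gata3 (0.18), F2rl1, a protease-activated receptor, for Bcl11b (0.47) and Pard6b for Themis (0.56). These distances describe likeness in 10 libraries of 4 groups and were not tested.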

How the data were processed

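RNA was measured in 10 libraries of sorted bone marrow cells. The deposited files hold raw counts of reads per gene and the exon length of each gene (another deposited column, in bases). They were made with featureCounts 1.4.3-p1 from exons of an mm10 annotation, per the file headers. CASAVA 1.82, STAR and mm9 are named in the submitters' processing notes, whereas the coordinates in the files are mm10. Samples of pre-B cells and of OcaB or double knockouts were not analysed here.

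Groups came from the sample labels. Genes were filtered with filterByExpr (minimum count 10, minimum total 15), scaled by TMM and fitted with edgeR 4.0.16 (R 4.3.3) in 1 model with a mean for each of 4 groups over 10 libraries. Robust quasi-likelihood F-tests were two-sided and adjusted by Benjamini-Hochberg over 14161 genes, with a threshold of 0.05. Fold changes use a prior count of 0.125, and each SE is the fold change divided by the square root of F. Likeness of profiles used log2 CPM with a prior count of 2. Counting intervals are exact binomial at 95% and cover counting error only. The fit was tested on simulated data with known changes.

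The members and lists were chosen with earlier results of these data known. The genes named are the members, Mta2, up to 4 of each pathway list with the smallest p in small pre-B cells and the nearest profile of each member. The marker genes named, Cd2, Sla and Pou2f1 were picked after their values were seen. Alternatives were DESeq2 1.42.0, limma-voom (limma 3.58.1), other scalings and filters, a block, a sex-linked RNA term, the compared groups alone and leaving out each library.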

Additional observations from a re-analysis of the deposited data

How the results depend on the processing

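In small pre-B cells 3 of the 10 genes were called. Over 20 alternatives, 10 called 0, 1 called 1, 2 called 2, 5 called 3 and 2 called more. DESeq2 called 7 and gave Cd4 no adjusted p, and its calls over the whole table rose too, as given below. The compared groups alone and the number in the file headers as a replicate block (chosen after seeing the data) each called 0, with adjusted p of 0.129 and 0.143 for Cd247. The fit with a term for sex-linked RNA is among the 10, but its small pre-B effect rested on KO 3 alone, since the term marked only KO 1 and 2. Leaving out 1 library gave 0 to 6. The cause was not tested. In pro-B cells the compared groups alone called 1 (Lat) in place of 0. The 3 calls kept a positive fold change throughout, at 1.34 to 1.80 for Cd247, 1.72 to 2.73 for Lat and 2.96 to 5.14 for Bcl11b.

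Numbers in the sample titles recur in both genotypes, and the main fit carried no term for them. Deviations from the group mean correlated between same-numbered libraries at 0.0147 and 0.0147 in pro-B and 0.102, 0.155 and 0.0449 in small pre-B cells. With 2 libraries a group, deviations mirror each other, so the pro-B values are equal by construction and cannot decide on pairing. Small pre-B libraries of different numbers correlated at -0.111 to 0.00175. Deviations from a group mean cancel out within the group here too, so these values are not independent of the same-number ones. Whether the numbers pair the libraries is not known here. Each small pre-B KO library correlated best with its own number. With the title number as a replicate block, 2 members were called in small pre-B cells (Cd247 and Bcl11b) and 0 in pro-B cells.

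Of 761 gene-level refits, 696 kept direction and side of the threshold, 41 lost a call, 9 gained one and 15 reversed. In small pre-B cells Cd4 turned to -1.03 with limma-voom, -0.45 with the title number as a block and -3.12 with the sex-linked term, and ran from -3.17 to 1.03 with 1 library left out. Its difference between stages was 0.36 with the header number as a block and ran from -3.35 to 0.85 with 1 library left out. In pro-B cells the leave-out ranges were -0.44 to 0.00 for Lck, -0.17 to 0.43 for Tcf7 and -0.49 to 0.32 for Gata3. None of these was a called result.

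Whole-table calls moved as widely. In small pre-B cells 428 became 1869 with DESeq2, 153 with the title-number block, 1 with the sex-linked term, 0 with the compared groups alone or the header-number block and 1 to 1667 with 1 library left out. In pro-B cells 5 became 182 with DESeq2, 148 with limma-voom, 8 with no filter or with 1 CPM in every library of a group, 856 with the compared groups alone, 0 with either block and 0 to 25 with 1 library left out. The difference between stages had 0, and 58 with DESeq2 and 0 to 40 with 1 library left out. Groups of 2 or 3 libraries, and counts under 10 in single libraries for Cd4, Cd5, Themis and Bcl11b in small pre-B cells, limit the precision.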
